A study of Mus musculus with 54 samples.

Results

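The genes of glycolysis, pyruvate dehydrogenase and the tricarboxylic acid (TCA) cycle were followed in the hearts and livers of mice with altered fidelity of mitochondrial translation. They were 47 genes chosen by name from the textbook pathway, of 54356 gene rows in the deposited tables, and each name was found. Aldoa stood in 2 rows, and the row with the higher values was used for it. All 47 had a mean of at least 10 normalized counts in the heart and in the liver, so that none was lost to the filter on low values. A normalized count is the number of reads on a gene after the authors scaled each mouse for depth.

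The mice were C57BL/6, 20 weeks old, male as far as the study's methods say, and fed a high-fat diet (HFD) with 42% of its energy from fat. Mrps12+/+ mice carried the normal gene for MRPS12, a protein at the decoding site of the mitochondrial ribosome. Mrps12ep/ep mice were homozygous for an error-prone and Mrps12ha/ha mice for a hyper-accurate allele, both inherited from crosses of heterozygous mice, and their Mrps12+/+ controls were age-matched littermates. RNA came from the whole organ of 3 mice of each genotype, with 3 technical libraries for each mouse, and all mice ate the HFD, so that no effect of the diet itself could be measured. In RNA from a whole organ, fewer cells of a type and less RNA per cell cannot be told apart.

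Glycolysis splits glucose into pyruvate in the cytosol. Glucose enters through transporters of the SLC2A family and is trapped in the cell by phosphorylation. Pyruvate becomes lactate, or crosses into mitochondria through the carrier MPC1 and MPC2 and is turned into acetyl-CoA by the pyruvate dehydrogenase (PDH) complex, which PDH kinases switch off and PDH phosphatases switch on. Acetyl-CoA is burnt in the TCA cycle. The heart prefers fatty acids but uses glucose and lactate as well, while the liver can run the pathway backwards and release glucose.

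A heart held 11202866 to 51480271 reads on genes and a liver 21238039 to 81518262. The shallowest heart came from Mrps12ha/ha mouse 2, where 1 read stood for 3.02 normalized counts. Markers of both tissues were present: all 10 cardiomyocyte markers passed the filter in the heart, where their summed level was 2265031 to 3892426, and all 11 listed hepatocyte markers passed it in the liver, with sums of 5720712 to 7469979. Other cells differed between mice within a genotype. The sum of 14 markers of fast skeletal muscle fibres was 29226 and 37083 in the livers of Mrps12+/+ mice 1 and 2 and 61.4 to 200.6 in the other 7 livers. Brown and white adipocyte markers summed to 18575 in the heart of Mrps12+/+ mouse 3 and to 1198 to 2811 in the other hearts, and atrial markers to 446254 in the heart of Mrps12ep/ep mouse 2. Cardiomyocyte markers summed to 8426 in the liver of Mrps12ha/ha mouse 3 and to 46.3 to 921 in the other livers, and erythroid markers to 184072 in the liver of Mrps12ha/ha mouse 1 and to 44778 to 96688 in the others.

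The tissues used different isozymes of the same steps. Per kilobase of the principal transcript and averaged over the 9 mice, Gapdh was the highest of the 47 genes in both tissues, at 114850 normalized counts in the heart and 96895 in the liver. In the heart it was followed by Aldoa at 60124, Idh2 at 45658 and Ldhb, the lactate dehydrogenase subunit of oxidative muscle, at 42629. In the liver it was followed by Fbp1, an enzyme of gluconeogenesis, at 31804, Ldha at 24302 and Eno1 at 16271. The heart and liver tables were normalized separately, so that only the order within a tissue is compared.

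The muscle forms led in the heart and the liver forms in the liver. In the heart the muscle genes Pfkm, Pgam2 and Eno3 stood at 12439, 24433 and 19606 normalized counts per kilobase, against 1482 for Pfkl, 1914 for Pgam1 and 3106 for Eno1. In the liver Pgam1 and Eno1 stood at 5120 and 16271, against 93.1 for Pgam2 and 234 for Eno3. Pyruvate kinase came from Pkm in the heart, at 17831 against 9.24 for Pklr, and from Pklr in the liver, at 7233 against 587 for Pkm. Slc2a4, which encodes the insulin-responsive transporter GLUT4, led the 3 transporter genes of the heart at 4723, and Slc2a2, which encodes GLUT2, led those of the liver at 2490. Within the PDH complex the PDH kinase gene Pdk2 was above Pdk1 in both tissues, at 8746 against 1232 in the heart and 3682 against 723 in the liver. The lowest genes were Pklr and Slc2a2 in the heart and the PDH phosphatase gene Pdp1 in the liver, at 9.24, 4.19 and 10.6.

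In Mrps12ha/ha hearts none of the 47 genes passed an adjusted p of 0.05 in limma against Mrps12+/+, nor with limma-voom on the recovered reads, and 4 had an unadjusted p under 0.05, as did 19.7% of all genes. Of all 16057 genes tested, 0.0311% passed. A total of 4 of 47 genes were higher in every Mrps12ha/ha than in every Mrps12+/+ heart, against 11.1% of all genes tested, and none of the 47 was lower without overlap, against 10.0%. The difference of the 47 from all genes was not tested. The 4 genes were Hk2, Gpi1, Ldhb and Mpc2. Sums of other markers differed in this comparison, and their part in it was not tested. The sum of 8 atrial markers was 17574, 29111 and 26812 in Mrps12ha/ha hearts and 35489, 200991 and 158031 in Mrps12+/+ hearts. Clu made up 27263 of the sum in Mrps12+/+ mouse 1. Clu and Nppa were lower without overlap, and the other atrial markers overlapped. Myl4, Myl7 and Sln were lower in Mrps12+/+ mouse 1 than in every Mrps12ha/ha heart. The sum of fast skeletal muscle markers was 5209 to 6775 against 11407 to 40788. Acta1 carried much of it, at 2978 to 3282 against 6961 to 37619. Acta1, Mybpc2, Atp2a1 and Actn3 were lower without overlap, Pvalb was higher, and the others overlapped.

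Hk2, the muscle hexokinase that commits glucose to the cell, had the largest difference among them. Its normalized counts were 9752, 9433 and 9561 in the Mrps12+/+ hearts and 16712, 12823 and 16071 in the Mrps12ha/ha hearts. The means were 9582 ± 160.5 and 15202 ± 2085 (SD, n = 3). On the log2 scale they differed by 0.66 with a standard error (SE) of 0.18 (adjusted p = 0.191 from limma). The lowest Mrps12ha/ha heart, mouse 2, was still above the highest Mrps12+/+ heart. Across the alternatives the adjusted p ran from 0.00376 to 0.540, and it was under 0.05 with array weights, at 0.00376, and without Mrps12ha/ha mouse 2, at 0.0140.

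The 250 bases before the annotated start of Hk2 are shown because Hk2 had the largest difference among the members without overlap in these hearts. They lie at chr6:82774455-82774704 on the minus strand of GRCm38.p6 and come from RefSeq. Capitals mark CACGT, the reverse complement of ACGTG, the core that hypoxia-inducible factors bind, at bases -226 to -222 and -52 to -48 before the start.
Hk2: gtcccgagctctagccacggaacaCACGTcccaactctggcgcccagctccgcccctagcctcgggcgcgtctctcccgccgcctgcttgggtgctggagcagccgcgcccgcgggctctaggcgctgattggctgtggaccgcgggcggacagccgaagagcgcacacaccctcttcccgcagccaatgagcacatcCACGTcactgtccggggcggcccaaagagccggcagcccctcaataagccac
Read on both strands, ACGTG stood in 19.6% of all 32851 RefSeq windows of this kind and in windows of 21.8% of 27025 genes. Of the 44 listed members 17 held ACGTG, among them Aldoa, Gapdh, Ldha, Pgk1 and Pkm. Each E-box CACGTG holds it too. A match describes letters and not binding.

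Gpi1, the enzyme after hexokinase, had 23968, 23063 and 22858 normalized counts in Mrps12+/+ and 28810, 25786 and 28161 in Mrps12ha/ha hearts, a log2 fold change of 0.24 (SE 0.13, adjusted p = 0.3003). Ldhb had 55878, 48491 and 52152 against 69148, 59215 and 67511, a log2 fold change of 0.32 (SE 0.20, adjusted p = 0.358). Mpc2, a subunit of the mitochondrial pyruvate carrier, had 7077, 6794 and 6928 against 9134, 7943 and 7828, a log2 fold change of 0.26 (SE 0.17, adjusted p = 0.387). The partner of Mpc2 in the carrier, Mpc1, overlapped between the groups with 13303, 17260 and 10774 in Mrps12ha/ha and 14727 to 16086 in Mrps12+/+ hearts.

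Several genes of the PDH complex and the TCA cycle, and some outside them, differed among the 3 Mrps12ha/ha hearts. The genes named in this paragraph and the next were chosen after their values were seen. Pdha1, the catalytic subunit of PDH, had 45660, 44153 and 48270 normalized counts in Mrps12+/+ hearts and 22394, 49258 and 22140 in Mrps12ha/ha hearts. Dlat, its acetyltransferase subunit, had 15636, 14436 and 14126 against 6739, 16145 and 5593. Ogdh, the first subunit of 2-oxoglutarate dehydrogenase, had 117925, 113878 and 121246 against 53505, 128082 and 67920. In all 3 genes mice 1 and 3 lay far below every Mrps12+/+ heart and mouse 2, the shallowest heart, lay above every one of them, so that the groups overlapped. With all 9 hearts the log2 fold changes were -0.66, -0.80 and -0.60, with adjusted p-values of 0.253, 0.238 and 0.307 from limma.

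The same order of the 3 hearts was seen in further genes of the complex and the cycle. Dld, the dehydrogenase subunit shared by both complexes, had 9747, 18586 and 8975 normalized counts in Mrps12ha/ha and 16633 to 17868 in Mrps12+/+ hearts. Cs, citrate synthase, had 33835, 65207 and 30350 against 55130 to 58182, and Idh3a, a subunit of isocitrate dehydrogenase, 14603, 24499 and 12304 against 22697 to 24905. Sucla2 and Suclg2, the alternative subunits of succinyl-CoA ligase, had 14343, 26181 and 11035 against 22528 to 25715, and 3967, 9000 and 4468 against 7232 to 8117. Idh2, Suclg1 and Fh1 did not divide the hearts in this way. Idh2 had 84904, 95414 and 81385 against 73261 to 90497, and Suclg1 15011, 13521 and 11284 against 12209 to 13457, while Fh1 had 14268, 13690 and 10748 against 12179 to 13699. Glycolytic genes were mixed. Pgk1 had 7052, 10954 and 7070 against 10013 to 11236, while Gapdh had 214458, 176781 and 153562 against 140340 to 167310 and Pgam2 27968, 19603 and 22333 against 16575 to 20354.

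Summed up by step, the median log2 difference of the 7 genes of pyruvate entry and PDH from the Mrps12+/+ mean was -0.69, 0.11 and -0.94 in Mrps12ha/ha mice 1, 2 and 3. It was -0.39, 0.097 and -0.55 for the 13 TCA cycle genes and -0.52, 0.19 and -0.61 for the 4 genes of PDH kinases and phosphatases. For the 5 genes of uptake and phosphorylation of glucose it was -0.27, 0.16 and -0.52, and for the 8 genes of lower glycolysis -0.26, 0.11 and -0.31. For the 6 genes of upper glycolysis it was -0.093, 0.14 and -0.17, and for the 2 lactate genes 0.18, 0.19 and 0.19. For all tested genes it lay between -0.015 and 0.0003 in these hearts. Of the 47 genes, 18 and 22 lay more than 0.5 below the Mrps12+/+ mean in mice 1 and 3 and 0 in mouse 2, where 3574, 3197 and 1958 of 16044 gene names did so in mice 1, 3 and 2. The median of the 47 log2 fold changes was -0.25, beside -0.024 for all genes.

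**Figure D1:**
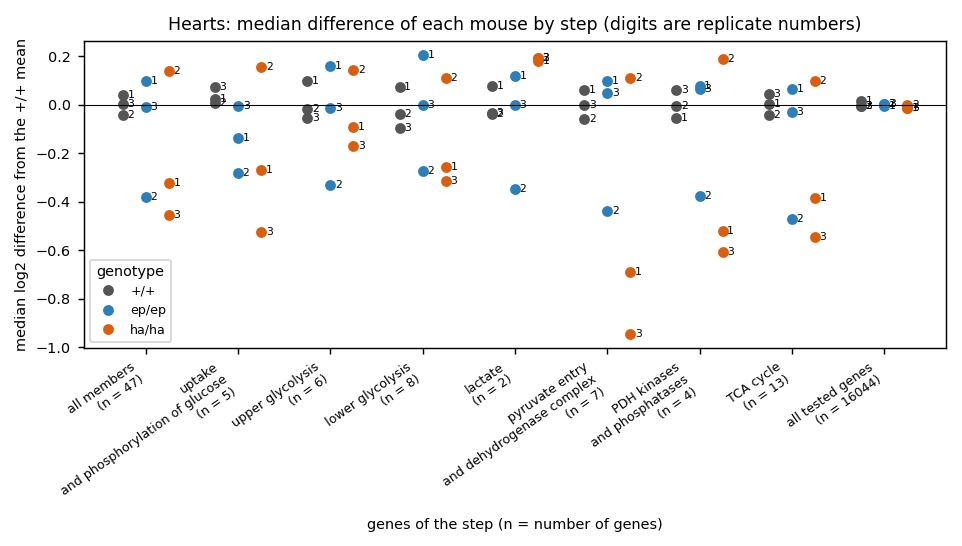
Median log2 difference of each heart from the mean of the Mrps12+/+ hearts (y axis) for the genes of each step (x axis, with the number of genes), where every point is 1 mouse, the colour gives the genotype and the digit the replicate number. For pyruvate entry and PDH, Mrps12ha/ha mice 1 and 3 stood at -0.69 and -0.94 and mouse 2 at 0.11, and Mrps12ep/ep mouse 2 was the lowest of its genotype in each step drawn.

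Without Mrps12ha/ha mouse 2, 20 of the 47 genes passed 0.05 in limma, 1 higher and 19 lower, where 12.2% of all genes tested passed as higher and 14.8% as lower. Hk2 was the gene that rose. Those that fell were Dlat, by 1.26 on the log2 scale (adjusted p = 0.00292), Pdha1, by 1.05 (0.00447), Ogdh, Dld, Pdhx, Cs, Idh3a, Sucla2, Suclg2, Mdh1, Pdk1, Pdk2, Pdp1, Pcx, Slc2a4, Pfkm, Pgk1, Pgam1 and Eno1. Across the alternatives the adjusted p of Dlat ran from 0.00292 to 0.567 and that of Pdha1 from 0.00403 to 0.592. This fit rests on 2 Mrps12ha/ha hearts. Leaving out either of those 2 hearts in place of mouse 2 gave 0 calls among the 47 genes.

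Several measures moved with this division of the hearts, and their part in it was not tested. Erythroid markers summed to 464630 and 1412859 in Mrps12ha/ha mice 1 and 3 and to 91929 to 235799 in the other 7 hearts, with 199356 in Mrps12ha/ha mouse 2. The 10 cardiomyocyte markers were themselves divided. In mouse 1, 6 of them lay above and 3 below every Mrps12+/+ heart, in mouse 3, 5 and 4, and in mouse 2, 5 and 1. Myh6, which carried much of their sum, had 2130354, 1185571 and 1846145 normalized counts in Mrps12ha/ha mice 1 to 3 and 1031675 to 1248721 in Mrps12+/+ hearts. Ryr2, the calcium release channel, had 16285, 44622 and 19113 against 47154 to 53594. Pln, the inhibitor of the calcium pump, had 126923, 245026 and 145842 against 188275 to 210112, so that mice 1 and 3 lay apart from mouse 2 as they did for Pdha1. Over the 47 genes, Spearman's rho of the difference from the Mrps12+/+ mean with the length of the principal transcript was -0.42 and -0.37 in mice 1 and 3 and 0.085 in mouse 2. With GC content it was 0.36, 0.48 and -0.046 in the same order. Over all tested genes these values were -0.15, -0.18 and -0.088 for length and 0.16, 0.24 and 0.020 for GC content. Genes of 1 heart share its library, so that these correlations across genes only describe the hearts. With the trend on length and GC content removed from each mouse, the median of the 47 log2 fold changes was -0.20 in place of -0.25. The median of all genes moved in the same direction, to 0.019 in place of -0.024.

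The study blotted GLUT4 in the hearts. Its gene Slc2a4 had 12710, 13513 and 14154 normalized counts in Mrps12+/+ and 8734, 13784 and 8956 in Mrps12ha/ha hearts, with means of 13459 ± 723 and 10491 ± 2853 (SD, n = 3). The log2 fold change was -0.39 (SE 0.19, adjusted p = 0.282, 0.00810 to 0.621 across the alternatives), and Mrps12ha/ha mouse 2 again lay among the Mrps12+/+ hearts. Slc2a1, the gene of the basal transporter GLUT1, had 517, 538 and 409 against 513 to 660. Slc2a2, Pklr and Fbp1 were low in every heart and highest in the 3 hearts with the most hepatocyte markers. The 11 hepatocyte markers summed to 18508, 15116 and 18136 in mouse 1 of Mrps12+/+, mouse 1 of Mrps12ep/ep and mouse 2 of Mrps12ha/ha and to 1648 to 9110 in the other hearts, and Fbp1 had 91.3, 117 and 133 in the first 3 of these hearts and 1.7 to 30.8 in the others. The part of these markers in the values was not tested.

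**Figure D2:**
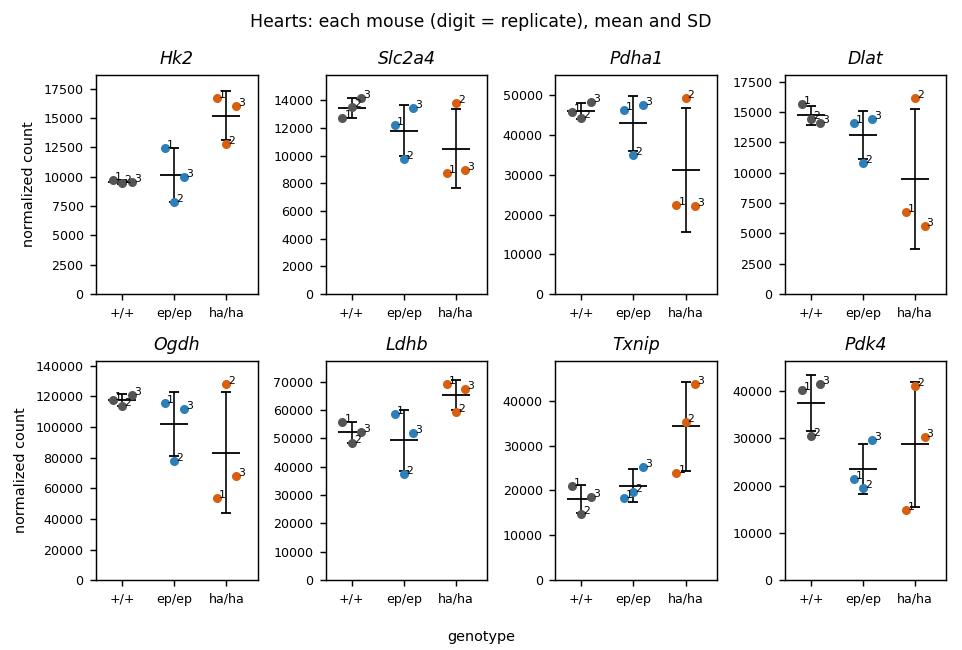
Normalized counts (y axis) of 8 genes in each heart by genotype (x axis), with the mean and SD of 3 mice as bars and the replicate number as a digit. Hk2 stood at 12823 to 16712 in Mrps12ha/ha and 9433 to 9752 in Mrps12+/+ hearts, while for Pdha1, Dlat and Ogdh mouse 2 of Mrps12ha/ha lay apart from mice 1 and 3.

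A list of 55 further genes of glucose and pyruvate metabolism, the other pathway list, held 52 genes tested in the heart. None passed 0.05 in the Mrps12ha/ha hearts. Of these 52 genes, 10 had an unadjusted p under 0.05, against 19.7% of all genes, 3 were higher and 3 lower without overlap, against 11.1% and 10.0%, and the median log2 fold change was -0.24. Txnip, which restrains glucose uptake and is induced by glucose, had 20933, 14733 and 18545 normalized counts in Mrps12+/+ and 23808, 35269 and 43708 in Mrps12ha/ha hearts, a log2 fold change of 0.89 (SE 0.24, adjusted p = 0.191, 0.00697 to 0.473 across the alternatives). Idh1, the cytosolic isocitrate dehydrogenase, had 1739, 1636 and 2029 against 1239, 1510 and 1073, a log2 fold change of -0.51 (0.14, adjusted p = 0.194). Me2, the mitochondrial malic enzyme, had 351, 239 and 270 against 197, 202 and 142, a log2 fold change of -0.66 (0.20, adjusted p = 0.208).

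Bpgm and Gpd2 completed the named genes of this list. Bpgm, the bisphosphoglycerate mutase of red cells, had 1438, 1326 and 1886 normalized counts in Mrps12+/+ and 2652, 1912 and 8828 in Mrps12ha/ha hearts, a log2 fold change of 1.21 (SE 0.47, adjusted p = 0.224). Its highest value lay in mouse 3, the heart with the highest erythroid markers. Gpd2, the mitochondrial glycerol-3-phosphate dehydrogenase, had 485, 523 and 1590 against 368, 438 and 385, a log2 fold change of -0.90 (0.40, adjusted p = 0.252). Its highest value lay in Mrps12+/+ mouse 3, the heart with the highest adipocyte markers, and was above the 368 to 614 of the other 8 hearts. The part of these markers was not tested.

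In Mrps12ep/ep hearts none of the 47 genes passed 0.05 against Mrps12+/+ in limma or limma-voom, and none had an unadjusted p under 0.05. Of all genes tested 0.0% passed, and 271 had an unadjusted p under 0.05. None of the 47 was higher or lower without overlap, where 4.4% of all genes were higher and 3.64% lower. All 13 TCA cycle genes and all 7 genes of pyruvate entry and PDH had negative log2 fold changes, with medians of -0.15 and -0.11, but each of these groups overlapped. The lowest heart was mouse 2, whose median over the 47 genes was 0.38 below the Mrps12+/+ mean, while mice 1 and 3 stood at 0.099 and -0.010. Without mouse 2 the median of the 47 log2 fold changes was 0.026, in place of -0.11.

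Single genes show the same heart. Idh2 had 87397, 49324 and 76351 normalized counts in Mrps12ep/ep mice 1 to 3 and 73261 to 90497 in Mrps12+/+ hearts. Ogdh had 115397, 77658 and 112068 against 113878 to 121246, and Sucla2 26271, 16495 and 25554 against 22528 to 25715. Mouse 2 was below every Mrps12+/+ heart in each of these, which were chosen after their values were seen, while mice 1 and 3 were near them. This heart also had the highest sum of atrial markers, 446254 against 17574 to 200991 in the other 8, and the lowest sum of cardiomyocyte markers, 2265031 against 2646182 to 3892426; the part of this in the values was not tested. Slc2a4 had 12242, 9778 and 13410 normalized counts in Mrps12ep/ep hearts, with a log2 fold change of -0.20 (SE 0.19, adjusted p = 1.0).

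Of the 52 genes of the other pathway list, 4 were lower without overlap in Mrps12ep/ep hearts, against 3.64% of all genes, and none passed 0.05. Pdk4, the PDH kinase that fasting and fatty acids induce, had 40249, 30597 and 41501 normalized counts in Mrps12+/+ and 21439, 19544 and 29589 in Mrps12ep/ep hearts, a log2 fold change of -0.68 (SE 0.34, adjusted p = 1.0, 0.464 to 1.0 across the alternatives). It was 14888, 41055 and 30272 in Mrps12ha/ha hearts, which overlapped with both other genotypes. Idh1 had 1478, 1427 and 1483 in Mrps12ep/ep hearts, below each Mrps12+/+ heart (log2 fold change -0.29, adjusted p = 1.0). Got1 and Aco1 had log2 fold changes of -0.25 and -0.13.

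Compared directly, Mrps12ha/ha and Mrps12ep/ep hearts differed in none of the 47 genes at 0.05, with 0.0249% of all genes passing, and 1 gene, Hk2, had an unadjusted p under 0.05, against 17.9% of all genes. In Mrps12ha/ha hearts 3 of 47 genes were higher without overlap, against 8.77% of all genes, and 0 were lower, against 7.82%. Hk2 had 12496, 7885 and 10010 normalized counts in Mrps12ep/ep hearts, and the log2 fold change of Mrps12ha/ha over Mrps12ep/ep was 0.60 (SE 0.18, adjusted p = 0.238, 0.00233 to 0.539 across the alternatives). Ldhb had 58448, 37516 and 51936 in Mrps12ep/ep hearts (log2 fold change 0.43, SE 0.20, adjusted p = 0.290) and Gpi1 25623, 25140 and 21919 (0.19, 0.13, adjusted p = 0.422). Slc2a4 differed by -0.19 with overlap (SE 0.19, adjusted p = 0.590). Without Mrps12ha/ha mouse 2, 15 of the 47 genes passed, 1 higher and 14 lower, where 10.4% of all genes passed as higher and 12.9% as lower.

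Of the other pathway list, Me2, Pck2 and Adpgk did not overlap between the mutants' hearts. Me2 had 332, 324 and 289 normalized counts in Mrps12ep/ep hearts, a log2 fold change of -0.82 (SE 0.20, adjusted p = 0.227). Pck2, the mitochondrial phosphoenolpyruvate carboxykinase and a target of the stress factor ATF4, had 473, 432 and 424 in Mrps12ep/ep and 731, 504 and 779 in Mrps12ha/ha hearts, a log2 fold change of 0.58 (0.23, adjusted p = 0.264). Adpgk, an ADP-dependent sugar kinase, had a log2 fold change of 0.18 (SE 0.11, adjusted p = 0.382).

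In Mrps12ha/ha livers no gene of the 47 passed 0.05 in limma or limma-voom against Mrps12+/+, 8 had an unadjusted p under 0.05, against 14.1% of all genes, and 0.00653% of all 15314 genes tested passed. In every Mrps12ha/ha liver 10 of 47 genes were higher, against 10.0% of all genes, and 3 were lower, against 9.81%. The genes higher without overlap were Pklr, Gpi1, Gapdh and Pgk1 of glycolysis, Mpc2, Dlat, Pdk1, Pdk2 and Pdp2 around PDH, and Idh3b of the TCA cycle. Those lower were Aldoa, Pdp1 and Idh3a. The median log2 fold change of the 47 was 0.060, beside -0.017 for all genes. Mrps12+/+ mice 1 and 2 carried skeletal muscle markers in these livers, and mouse 3 had 740661 normalized counts of the acute-phase gene Fgb against 141891 to 210802 in the other 8 livers.

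Pklr, which encodes the pyruvate kinase of liver and red cells and is induced by glucose and insulin, had the largest difference among the members without overlap. Its normalized counts were 14062, 17185 and 11669 in Mrps12+/+ and 24445, 31424 and 33759 in Mrps12ha/ha livers, with means of 14305 ± 2766 and 29876 ± 4846 (SD, n = 3). The lowest Mrps12ha/ha liver was well above the highest Mrps12+/+ liver. The log2 fold change was 1.07 (SE 0.36, adjusted p = 0.249, 0.133 to 0.513 across the alternatives). Mrps12ep/ep livers spread over the whole of this range, at 8964, 28391 and 19018.

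The 250 bases before the start of the liver transcript of Pklr are shown because this gene differed most among the members without overlap in these livers. They lie at chr3:89136373-89136622 on the plus strand of GRCm38.p6 and come from RefSeq. Capitals mark the match to the carbohydrate response element, the paired E-box through which the glucose-sensing factor ChREBP is known to act, at bases -170 to -154 before the start.
Pklr: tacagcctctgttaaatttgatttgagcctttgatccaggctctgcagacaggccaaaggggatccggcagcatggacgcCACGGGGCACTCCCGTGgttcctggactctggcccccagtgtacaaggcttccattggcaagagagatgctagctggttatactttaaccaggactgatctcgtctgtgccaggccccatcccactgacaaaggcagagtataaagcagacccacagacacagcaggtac
Searched on both strands, the carbohydrate response element stood in 0.119% of the 32851 windows and in 0.137% of 27025 genes. Pklr was the 1 listed member that held it. The E-box CACGTG stood in 7.15% of windows and in 8.09% of genes. The listed members that held it were Ldha, Ogdh, Pcx, Pdk2, Pdp2 and Pfkm. The values in the deposited tables are per gene and do not tell the liver from the red cell transcript of Pklr.

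Of the 4 genes of PDH kinases and phosphatases, 3 were higher and 1 lower without overlap. Pdk2 had 6581, 8383 and 6477 normalized counts in Mrps12+/+ and 10408, 9242 and 10066 in Mrps12ha/ha livers, a log2 fold change of 0.48 (SE 0.13, adjusted p = 0.169, 0.0676 to 0.402 across the alternatives). Pdk1 had 2713, 3726 and 3623 against 4822, 4206 and 4884, also a log2 fold change of 0.48 (0.23, adjusted p = 0.386). Pdp2, a phosphatase that opposes both kinases, had 1593, 2075 and 1949 against 2637, 2833 and 2299, a log2 fold change of 0.47 (0.19, adjusted p = 0.313). All 3 genes were higher in each Mrps12ha/ha liver. The other phosphatase gene, Pdp1, was low in the liver, with 78.4, 87.3 and 39.1 in Mrps12+/+ and 33.3, 32.8 and 34.3 in Mrps12ha/ha livers, a log2 fold change of -0.93 (0.38, adjusted p = 0.321).

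Mpc2 had 5060, 5458 and 4588 normalized counts in Mrps12+/+ and 6878, 6677 and 6466 in Mrps12ha/ha livers, a log2 fold change of 0.41 (SE 0.12, adjusted p = 0.210, 0.135 to 0.473 across the alternatives). Mpc1, its partner, overlapped at 13733, 11776 and 11420 against 10115, 12708 and 14138. Dlat had 2494, 2663 and 2408 against 3658, 2712 and 2723, and the other PDH subunit genes overlapped. In the TCA cycle, Idh3b had 7501, 8430 and 7900 against 8939, 9034 and 8634, while Idh3a, the catalytic subunit of the same enzyme, had 1640, 1697 and 1537 against 1499, 1085 and 1237 (log2 fold change -0.36, SE 0.12, adjusted p = 0.256). The 2 subunit genes of this enzyme thus lay on opposite sides of Mrps12+/+, and the third, Idh3g, overlapped at 4891, 3857 and 3923 against 3718 to 4350.

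Among glycolytic genes, Gapdh had 115740, 132355 and 119269 normalized counts in Mrps12+/+ and 143623, 141084 and 160675 in Mrps12ha/ha livers (log2 fold change 0.28, SE 0.20, adjusted p = 0.565). Gpi1 had 11649, 12411 and 11072 against 14656, 12491 and 20495 (0.41, 0.28, adjusted p = 0.540), where mouse 2 barely exceeded the highest Mrps12+/+ liver. Pgk1 had 11517 to 12645 against 12648 to 12829, so that the groups barely separated. Aldoa had 7967, 8402 and 8360 against 6395, 5137 and 6885 (log2 fold change -0.44, SE 0.15, adjusted p = 0.254). Slc2a2, the gene of GLUT2, which the study blotted in livers, had 12367, 14724 and 10149 against 14514, 18160 and 14964 (0.36, 0.16, adjusted p = 0.354), with 1 Mrps12ha/ha liver inside the Mrps12+/+ range.

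Of the other pathway list 50 genes were tested in the liver. None passed 0.05 in Mrps12ha/ha livers, 12 had an unadjusted p under 0.05, against 14.1% of all genes, and 15 were higher and 6 lower without overlap, against 10.0% and 9.81%. Slc37a4, which carries glucose-6-phosphate into the endoplasmic reticulum, had 6691, 6522 and 3738 normalized counts in Mrps12+/+ and 8080, 9338 and 9160 in Mrps12ha/ha livers (log2 fold change 0.69, SE 0.22, adjusted p = 0.226). Mrps12+/+ mouse 3 was the lowest liver of all.

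On the lower side, Pfkfb3, which makes the activator of phosphofructokinase, had 2147, 2106 and 2412 normalized counts in Mrps12+/+ and 1283, 780 and 734 in Mrps12ha/ha livers, a log2 fold change of -1.30 (SE 0.30, adjusted p = 0.134, 0.109 to 0.378 across the alternatives). Pdk4 had 944, 1920 and 2307 against 833, 522 and 481, a log2 fold change of -1.44 (0.39, adjusted p = 0.170). Thus the PDH kinase genes did not lie on the same side, with Pdk1 and Pdk2 higher and Pdk4 lower without overlap. Me3 was low, with 48.3 in the highest and 16.4 in the lowest of these 6 livers (log2 fold change -0.78, adjusted p = 0.387).

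**Figure D3:**
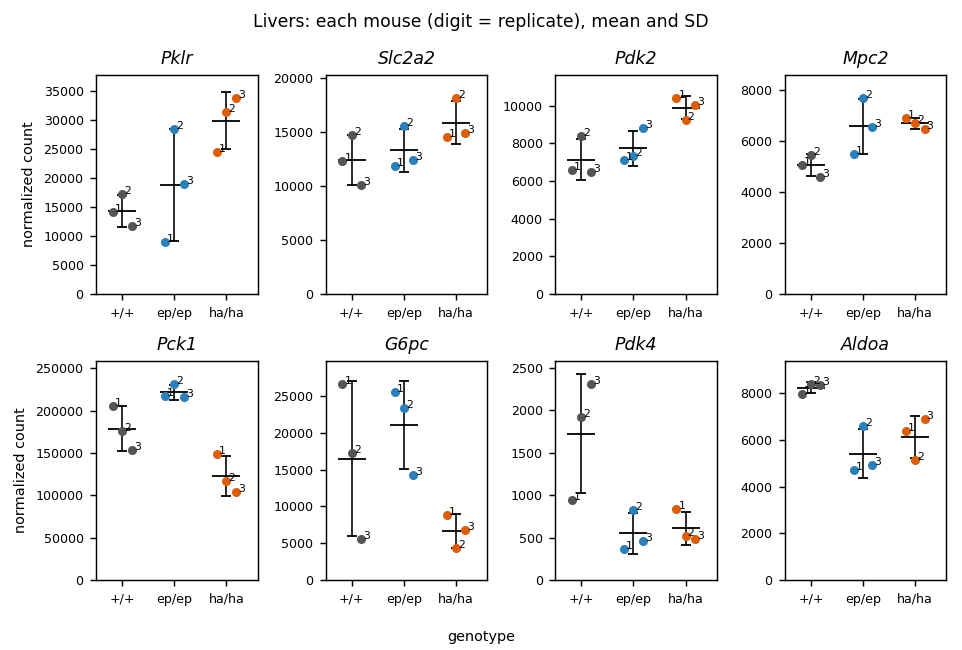
Normalized counts (y axis) of 8 genes in each liver by genotype (x axis), with the mean and SD of 3 mice as bars and the replicate number as a digit. Pklr and Pdk2 were higher in every Mrps12ha/ha than in every Mrps12+/+ liver, Mpc2 was higher and Aldoa and Pdk4 lower in both mutants without overlap, and Pck1 and G6pc were lower in every Mrps12ha/ha than in every Mrps12ep/ep liver.

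In Mrps12ep/ep livers no gene of the 47 passed 0.05 against the same Mrps12+/+ mice, and 8 had an unadjusted p under 0.05, against 9.74% of all genes. Of all genes tested 0.00653% passed. Without overlap 3 of 47 genes were higher, against 6.49% of all genes, and 4 were lower, against 6.28%. Since both mutants were compared with the same controls, a gene that stood out in both is not seen in independent comparisons. The median log2 fold change was -0.014, beside -0.0070 for all genes.

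The genes higher without overlap were Mdh1, Mpc2 and Pfkl. Mdh1, the cytosolic malate dehydrogenase, had 25323, 23344 and 19672 normalized counts in Mrps12+/+ and 28819, 29491 and 31986 in Mrps12ep/ep livers, a log2 fold change of 0.41 (SE 0.13, adjusted p = 0.434, 0.153 to 0.744 across the alternatives). Mpc2 had 5498, 7666 and 6523 in Mrps12ep/ep livers (0.37, 0.12, adjusted p = 0.454), where mouse 1 lay just above the highest Mrps12+/+ liver, at 5458. Pfkl, the liver phosphofructokinase, had 1999, 1676 and 1882 against 2128, 2285 and 2133 (0.24, 0.092, adjusted p = 0.474).

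The genes lower without overlap were Hk2, Eno3, Aldoa and Idh3a. Hk2, which is low in hepatocytes, had 346, 269 and 151 normalized counts in Mrps12+/+ and 79.2, 62.2 and 95.4 in Mrps12ep/ep livers, a log2 fold change of -1.62 (SE 0.63, adjusted p = 0.475). Among Mrps12+/+ livers it was higher in mice 1 and 2, those with skeletal muscle markers, whose part was not tested. In Mrps12ha/ha livers Hk2 was 502, 68.3 and 128, the widest spread of any genotype. Aldoa had 4716, 6613 and 4945 (log2 fold change -0.62, SE 0.15, adjusted p = 0.345, 0.146 to 0.719 across the alternatives) and Idh3a 1281, 1444 and 1307 (-0.27, 0.12, adjusted p = 0.514). Slc2a2 had 11908, 15542 and 12467 and overlapped (0.11, 0.16, adjusted p = 0.853).

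Eno3, the muscle enolase, had 654, 824 and 317 normalized counts in Mrps12+/+ and 198, 312 and 206 in Mrps12ep/ep livers, a log2 fold change of -1.24 (SE 0.35, adjusted p = 0.407). Without Mrps12+/+ mouse 3, the liver without skeletal muscle markers, its log2 fold change was -1.65 and its adjusted p 0.0482, the lowest of 0.0482 to 0.744 across the alternatives, in a fit that 0.444% of all genes passed. Other muscle isozymes were high in the same Mrps12+/+ livers 1 and 2. Pgam2 had 262, 387 and 0.8, Ldhb 404, 618 and 108, Pfkm 1159, 1683 and 625, and Slc2a4 188.9 in mouse 1, more in mouse 2, with mouse 3 listed at 0. In the 6 mutant livers Pgam2 had 0 to 39.5, Ldhb 78.8 to 305, Pfkm 706 to 988 and Slc2a4 45.5 to 122. The highest of these for Pgam2 and Ldhb lay in Mrps12ha/ha mouse 3, the liver with cardiomyocyte markers. The muscle markers of those 2 livers are not hepatocyte transcripts: Acta1 had 4553 and 6323 there and 0 to 22.0 in the other 7 livers. Their part in the fold changes of the muscle isozymes was not tested.

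**Figure D4:**
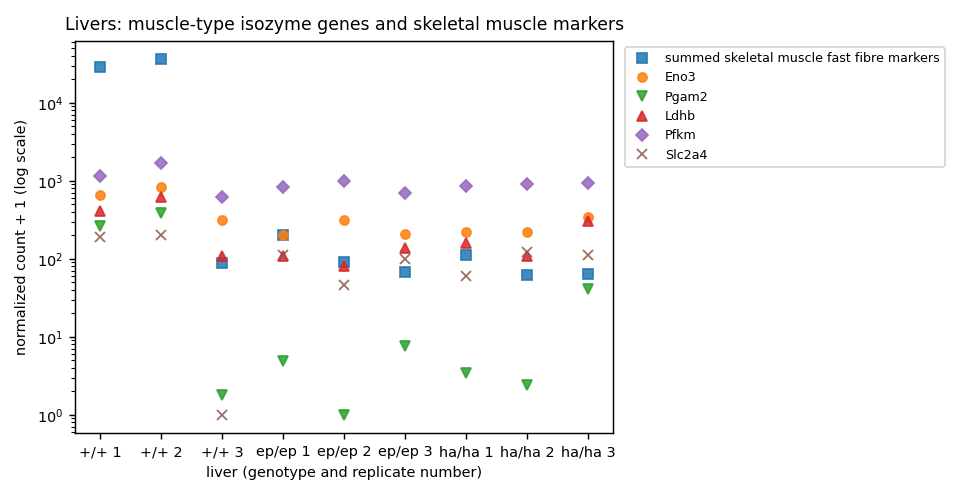
Normalized count plus 1 (y axis, log scale) of 5 muscle-type genes and of the sum of 14 skeletal muscle markers in each liver (x axis). The marker sum was 29226 and 37083 in Mrps12+/+ livers 1 and 2 and at most 200.6 elsewhere, and Pgam2, Eno3, Ldhb, Pfkm and Slc2a4 were highest in these 2 livers.

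Of the 50 genes of the other pathway list 7 were higher and 5 lower without overlap in Mrps12ep/ep livers, against 6.49% and 6.28% of all genes, 8 had an unadjusted p under 0.05, against 9.74%, and none passed. Pdk4 had 372, 822 and 459 normalized counts against 944, 1920 and 2307, a log2 fold change of -1.63 (SE 0.39, adjusted p = 0.342, 0.0593 to 0.719 across the alternatives). Aldoc had 205, 197 and 215 against 366, 485 and 1060 (-1.47, 0.36, adjusted p = 0.348), and Pfkfb4 35.3, 27.5 and 42.2 against 65.1, 50.1 and 132 (-1.11, 0.42, adjusted p = 0.471). Fbp2, the muscle fructose bisphosphatase, had 4.7 to 11.6 against 14.7 to 25.3 (-1.36, 0.70, adjusted p = 0.551).

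Between the mutants, Mrps12ha/ha against Mrps12ep/ep livers, none of the 47 genes passed 0.05, with 0.00653% of all genes passing, and 5 had an unadjusted p under 0.05, against 8.62% of all genes. Without overlap 4 of 47 were higher, against 8.82% of all genes, and 2 were lower, against 9.01%. Pdk2 had 7115, 7330 and 8822 normalized counts in Mrps12ep/ep and 10408, 9242 and 10066 in Mrps12ha/ha livers, a log2 fold change of 0.36 (SE 0.13, adjusted p = 0.509, 0.187 to 0.912 across the alternatives). Cs had 5876, 7940 and 6254 against 8290, 7947 and 9162 (0.35, 0.16, adjusted p = 0.584), and Pdhx and Dlst had log2 fold changes of 0.20 and 0.19. Fh1, fumarase, had 11056, 10477 and 11392 against 8668, 8908 and 7560 (-0.39, 0.17, adjusted p = 0.580), and Pfkl had a log2 fold change of -0.17. Slc2a2 overlapped, at 0.26 (0.16, adjusted p = 0.717).

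Pck1 and G6pc, which lead from pyruvate back to glucose, were lower in every Mrps12ha/ha than in every Mrps12ep/ep liver. Pck1, the enzyme that controls gluconeogenesis from pyruvate, had 217010, 231281 and 215844 normalized counts in Mrps12ep/ep and 148650, 116392 and 103772 in Mrps12ha/ha livers, a log2 fold change of -0.86 (SE 0.20, adjusted p = 0.417, 0.0968 to 0.912 across the alternatives). G6pc, the glucose-6-phosphatase that releases glucose, had 25494, 23327 and 14244 against 8906, 4324 and 6789, a log2 fold change of -1.67 (0.51, adjusted p = 0.460). Mrps12+/+ livers had 205980, 176441 and 153521 for Pck1, above each Mrps12ha/ha and below each Mrps12ep/ep liver, and 26599, 17271 and 5627 for G6pc. Slc2a5, a fructose transporter gene, had 170, 226 and 235 against 626, 362 and 388 (1.09, 0.23, adjusted p = 0.417). Aldoc and G6pc3 were also higher in Mrps12ha/ha livers, with log2 fold changes of 0.92 and 0.36.

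**Figure D5:**
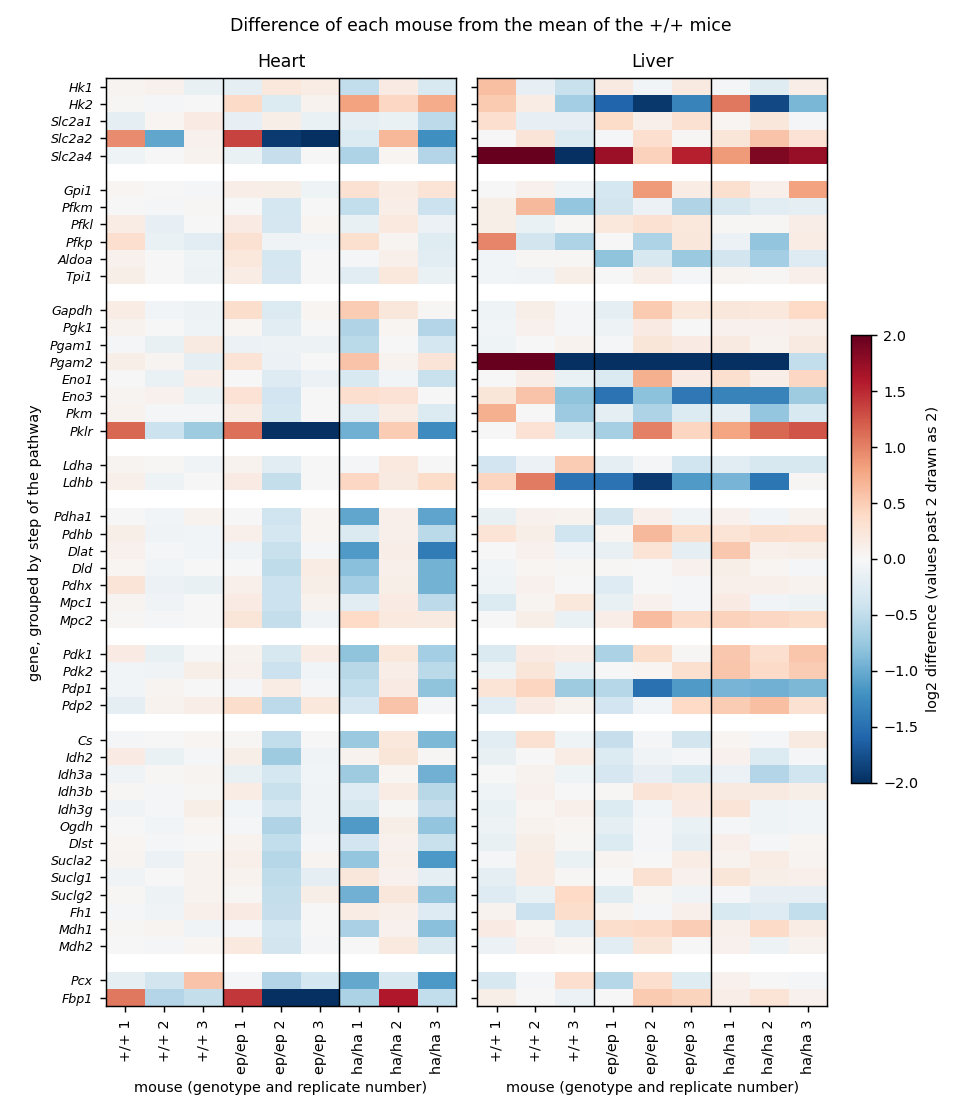
Log2 difference of each of the 47 genes (y axis, grouped by step) in each mouse (x axis) from the mean of the 3 Mrps12+/+ mice of the tissue, in red where higher and blue where lower, with the colour scale clipped at 2. In the hearts 18 and 22 of the 47 genes lie more than 0.5 below the Mrps12+/+ mean in Mrps12ha/ha mice 1 and 3 and 0 in mouse 2, and Hk2 is red in all 3 Mrps12ha/ha columns; in the livers Pgam2, Eno3 and Ldhb are high in Mrps12+/+ mice 1 and 2.

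Ratios of isozyme genes within a mouse do not depend on how its library was scaled. For 12 pairs in 6 comparisons, 72 exact two-sided permutation tests were run, in which 3 against 3 mice cannot go below 0.1, and all 72 adjusted p-values were at least 0.72. In 10 tests the groups reached 0.1. The log2 ratio of Hk2 to Hk1, the hexokinase of most tissues, was 0.28, 0.20 and 0.45 in Mrps12+/+ and 1.61, 0.57 and 1.37 in Mrps12ha/ha hearts, a difference of 0.87. In livers it was -0.20, 0.20 and -0.36 in Mrps12+/+ and -1.90, -1.998 and -1.63 in Mrps12ep/ep mice, a difference of -1.72. The ratio of Pkm to Pklr was -2.39, -3.40 and -3.56 in Mrps12+/+ and -4.10, -5.04 and -4.68 in Mrps12ha/ha livers, a difference of -1.49. The ratio of Eno1 to Eno3 was 5.47, 5.27 and 6.38 in Mrps12+/+ livers and 6.82 to 7.36 in the 6 mutant livers. The lower values lay in Mrps12+/+ livers 1 and 2, whose skeletal muscle markers summed to 29226 and 37083, and the part of these markers in the ratio was not tested. In hearts it was -2.15, -2.30 and -1.82 in Mrps12+/+ and -2.72, -2.43 and -2.53 in Mrps12ha/ha mice. Ldha over Ldhb reached 0.1 in no comparison.

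Gpi1 and Mpc2 were the 2 of 47 genes that were higher without overlap in both tissues of Mrps12ha/ha mice, and for Mrps12ep/ep mice there was none on either side. Of all 14070 genes tested in both tissues, 1.51% were higher without overlap in both tissues of Mrps12ha/ha mice. For Mrps12ep/ep mice 0.199% of these genes were higher and 0.256% lower. Gpi1 lies on chromosome 7 of GRCm38 from 34201330 to 34230336, which is 5.46 megabases from Mrps12, the gene that carries the mutations. The other 3 members on this chromosome, Ldha, Idh2 and Aldoa, lie 18.1, 51.4 and 98.1 megabases from it. Idh2 and Ldha overlapped between Mrps12ha/ha and Mrps12+/+ mice in both tissues, and Aldoa did so in the heart and was lower without overlap in the liver. Whether nearness to Mrps12 has a part in the values of Gpi1 was not tested.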

How the data were processed

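RNA sequencing of total RNA from hearts and livers was taken as deposited: 18 columns, 1 per mouse and tissue, of gene values that the authors normalized for depth. Per the paper's methods and the labels, the authors trimmed reads with Trim Galore 0.4.1 and cutadapt 1.18, quantified GENCODE vM21 genes (GRCm38.p6) with Salmon 1.1.0, pooled the technical libraries, left out mitochondrial transcripts and normalized each tissue by DESeq2 size factors; the deposited values are rounded to 1 decimal. Tables of the authors' own comparisons (fold changes and p-values) were not used. Low values were whole multiples of the value of 1 read in 100.0% of cases (within 0.1 read), which gave depth and reads. The deposited unit is a scaled count, and integer counts were not given but recovered in this way. Count models had been foreseen as alternatives but were not fitted to the recovered reads, on which limma-voom was run.

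Log2(normalized count + 1) was fitted with limma 3.58.1 in R 4.3.3 (lmFit, eBayes with a trend), all 9 mice of a tissue in 1 fit, for genes with a mean of at least 10. Adding 1 understates fold changes of low genes. Benjamini-Hochberg adjustment ran over all tested genes of a tissue, with a threshold of 0.05. In each comparison the members past the threshold, then up to 10 members with the largest difference among those without overlap, up to 5 genes of the other pathway list by the same rule, and Slc2a4 in hearts and Slc2a2 in livers were named with statistics. Some genes that this rule picks are not reported here. The members and lists were chosen with earlier results of these data known. The labels number the mice 1 to 3 in each group. The fit was tested on simulated data. Nothing states that a heart and a liver came from the same mouse. Python 3.11.15 with pandas 2.3.3 was used for the rest.

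Alternatives were pseudocounts of 0.1 and 8, no filter or a minimum mean of 50, quantile-normalized values, re-centring on medians, only the 2 genotypes compared, array weights, a replicate block and leaving out each mouse. Added after seeing the data were limma-voom on recovered reads and removal of the trend on transcript length and GC content. Levels per kilobase use the GENCODE principal transcript. Salmon divides reads between near copies: named pseudogenes of Gapdh, Ldha, Pgk1, Pgam1 and Aldoa had at most 4.8 normalized counts, and Eno1b at most 246.4 beside 32982 for Eno1 in livers.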

Additional observations from a re-analysis of the deposited data

Results flagged for a closer look

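Adpgk, an ADP-dependent sugar kinase of the other pathway list, did not overlap between Mrps12ha/ha and Mrps12+/+ mice in either tissue, on opposite sides, with a log2 fold change of 0.23 in hearts and -0.21 in livers. Its normalized counts were 504, 472 and 477 in Mrps12+/+ and 539, 553 and 614 in Mrps12ha/ha hearts, and 933, 861 and 1074 against 857, 822 and 786 in livers. The livers barely separated, at 857 against 861. Against Mrps12ep/ep it did the same, at 0.18 in hearts and -0.16 in livers. Aco1, the cytosolic aconitase of the same list, was lower in every Mrps12ep/ep than in every Mrps12+/+ heart, at -0.13, and higher in every Mrps12ep/ep than in every Mrps12+/+ liver, at 0.25. The difference between the tissues was not tested, since their tables were normalized separately. No member of the 47 had this pattern, and its share of all genes was not counted. The flagging did not search groups of 3 mice for single outlying values, although each mouse was left out in turn in the fits.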

How the results depend on the processing

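Counts of members past 0.05 in the hearts depended on the weight of single mice. Against Mrps12+/+, Mrps12ha/ha hearts had 0 members past it, but 26 with array weights, which gave Mrps12ha/ha mouse 2 a weight of 0.167 and with which 34.7% of all genes passed, and 0 to 20 when 1 mouse was left out, 20 without Mrps12ha/ha mouse 2. Against Mrps12ep/ep the counts were 25 with array weights, with 39.3% of all genes, and 0 to 15 when 1 mouse was left out, 15 without the same mouse. In Mrps12ep/ep livers the count was 0 to 1 when 1 mouse was left out, the 1 being Eno3 without Mrps12+/+ mouse 3. With quantile normalization 1 member, in place of 0, was lower without overlap in Mrps12ha/ha hearts, and with re-centring on medians 16, in place of 10, were higher without overlap in Mrps12ha/ha livers. The share of all genes without overlap was not counted under these settings. Their median log2 fold change moved as well, from -0.024 to 0.0062 in the hearts and from -0.017 to 0.023 in the livers. The log2 fold change of Slc2a2 in Mrps12ep/ep livers, 0.107, reversed to -0.042 with array weights and ran from -0.030 to 0.238 when 1 mouse was left out, at -0.010 without Mrps12ep/ep mouse 2. The cause was not tested in any of these cases.

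The mice shared numbers but were not paired by the labels, and deviations of same-numbered mice correlated from -0.231 to 0.578 in hearts and -0.133 to 0.164 in livers. With the replicate number as a replicate block, 0 members passed in each of the 6 comparisons. The medians were -0.248, -0.106 and -0.102 in hearts and 0.059, -0.013 and 0.065 in livers. They are given for Mrps12ha/ha and Mrps12ep/ep against Mrps12+/+ and for the mutants against each other. Every genotype held mice 1 to 3, so the block could not move these medians from those of the main fit. The count models foreseen as alternatives were not run, and limma-voom on recovered reads took their place. Among values of single genes under an alternative, 1175 kept their direction and side of the threshold, 23 passed it only there and 3 reversed. The shallowest heart, with 11202866 reads, limits what Mrps12ha/ha mouse 2 can show for low genes.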

Other observations

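Succinate dehydrogenase, the TCA cycle enzyme of the respiratory chain, is encoded by 4 genes of the other pathway list, which were named after their values were seen. In livers all 4 were higher in every Mrps12ha/ha than in every Mrps12+/+ mouse, against 10.0% of all genes, and none passed 0.05. Sdha had 23745, 26879 and 23188 normalized counts in Mrps12+/+ and 27580, 27741 and 26950 in Mrps12ha/ha livers, a difference of 0.16 on the log2 scale (limma's adjusted p = 0.506). Sdhb had 8029, 8805 and 5873 against 9910, 10604 and 9708 (0.43, adjusted p = 0.251), and Sdhd 7384, 8701 and 7148 against 9368, 8749 and 9265 (0.24, adjusted p = 0.318). In hearts Sdha divided the Mrps12ha/ha mice as Pdha1 did, with 31963, 63277 and 32464 against 56149 to 61660 in Mrps12+/+. Sdhc did so too, with 9239, 15137 and 9312 against 12386 to 12994. So did Sdhd, with 9023, 14521 and 8344 against 12206 to 13855. Sdhb did not, with 31889, 28452 and 24942 against 24588 to 26961.

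Gpt, the alanine aminotransferase that makes pyruvate from alanine, had 10587, 12385 and 8034 normalized counts in Mrps12+/+ livers, 14570, 14728 and 14730 in Mrps12ep/ep livers and 15216, 15471 and 13897 in Mrps12ha/ha livers. Both mutants lay above every control, with log2 fold changes of 0.53 (adjusted p = 0.395) and 0.54 (adjusted p = 0.168), against the same 3 control livers. Pfkfb2 had 683, 588 and 626 in Mrps12+/+ and 455, 432 and 351 in Mrps12ha/ha livers, a log2 fold change of -0.62 (adjusted p = 0.170).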
